A study of Mus musculus with 24 samples.

Results

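The effect of diabetes on renal microvascular endothelial cells (renMECs) was measured in 6 CD31+ regions of mouse kidney, 3 from diabetic and 3 from non-diabetic mice, out of 24 regions in the series. The regions were taken by their sample titles, with no use of measured values. The series also holds 6 cardiac (carMEC), 6 retinal (retMEC) and 6 retinal NeuN+ (neuronal) regions, again with 3 per condition. All mice were male C57BL/6J. The diabetic mice had been injected at 8 weeks of age, over 5 days, with 50 mg/kg streptozotocin in citrate buffer, a compound that destroys the pancreatic beta cells that make insulin. Their non-diabetic littermates had received the buffer alone. Tissue was taken 2 months after the injections.

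CD31 is an adhesion molecule on the surface of endothelial cells. The microvessels of the kidney comprise the fenestrated capillaries of the glomerulus, where plasma is filtered, and the peritubular capillaries, which take up what the tubules return to the blood. Loss of glomerular filter function, with albumin in the urine, is a known complication of diabetes in this organ. The regions were chosen on CD31+ microvessels, leaving out large vessels, and the labels do not say which capillary bed a region lay in. Each probe carried a barcode that was released from the region by ultraviolet light and counted by sequencing. A region holds many cells, so fewer cells of a type and less RNA per cell cannot be told apart in these counts.

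Counts are given per probe, because the sources used here pair no probe ID with a gene. The endothelial label was therefore not checked against Pecam1 or other markers, and lists of endothelial, podocyte, tubular and leukocyte markers were not tested. For the same reason only 4 probes are given by ID, and no pathway is described. The labels do not tie the 3 regions of a condition to its 3 mice, so the tests measure the spread between these regions.

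Total counts were 356967, 217736 and 333862 in the diabetic regions, against 568886, 263315 and 1451915 in the non-diabetic regions. Diabetic region 2 and non-diabetic region 2 were the shallowest, with a median count of 6 per probe each, and non-diabetic region 3 was the deepest, with a median of 31. The conditions overlapped in depth only through non-diabetic region 2, since non-diabetic regions 1 and 3 were deeper than every diabetic region. Aligned reads per count were 26.5, 10.1 and 13.5 in diabetic regions 1, 2 and 3. They were 30.8, 27.8 and 26.4 in the non-diabetic regions. Depth thus went in part with condition. In diabetic region 2, 14711 probes were under 10 counts, against 66 in non-diabetic region 3. Of the 20186 probes with a count in the series, 20185 had one in renMECs and 19897 had one in every renMEC region. The counts of any pair of regions of a condition differed by more than sampling noise (chi-square per degree of freedom 1.51 to 2.20). The 18 renMEC, carMEC and neuronal regions share plate 2, and the retMEC regions, on plate 1, were not compared with renMECs here. To set regions side by side, counts were divided by the 75th percentile of the region and multiplied by the geometric mean of these percentiles, 17.7. The results are called scaled counts.

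The first question was which probes differed between the conditions. More probes were lower than higher in diabetes. Of 9486 probes tested, 308 (3.25%) were lower and 44 (0.464%) were higher in diabetic renMECs (edgeR quasi-likelihood test, Benjamini-Hochberg adjusted p under 0.05). At an unadjusted p under 0.05, 1169 were lower and 371 higher, and the median log2 fold change of all tested probes was -0.09. The split depended on the scaling. With total counts in place of the 75th percentile, 141 probes were lower and 110 higher, and the median of all tested probes moved to 0.14. The unadjusted counts turned round under that scaling, with 528 probes lower and 1067 higher. With DESeq2's own test 253 were lower and 13 higher. Single regions weighed on the counts: leaving out non-diabetic region 3, the deepest, left 78 lower and 7 higher. Without diabetic region 1 there were 159 and 19, without diabetic region 3 there were 201 and 38, and without diabetic region 2 there were 343 and 68. By adjusted p, lower calls outnumbered higher calls in each of these.

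Both kinds of called probe differed in level as well as in direction. The probes called lower had a median mean scaled count of 62.1, with a range of 15.4 to 17238, while all tested probes had a median of 17.5. Those called higher had a median of 22.3, with a range of 11.2 to 215. The median log2 fold change was -1.11 among probes called lower, with the extreme at -3.53, and 1.23 among those called higher, with the extreme at 2.05. Over 2-fold changes made up 210 of the 308 lower and 38 of the 44 higher calls, and over 4-fold changes 15 and 1. On scaled counts the diabetic and non-diabetic regions did not overlap for 306 of the 308 and for 39 of the 44. Among the 11025 probes with a mean scaled count of at least 10, the diabetic regions were all lower for 13.3% and all higher for 6.78%. The called probes were chosen on the same 6 regions, so their separation follows from the choice.

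Together the probes called lower took 8.73%, 8.36% and 7.88% of the counts in the diabetic regions, against 14.5%, 14.5% and 16.7% in the non-diabetic regions. The probes called higher took 0.636%, 0.614% and 0.561% in the diabetic regions, against 0.234%, 0.256% and 0.207% in the non-diabetic regions. These shares follow from the choice of the probes and are given as sizes only. At the threshold itself, the last probe called had a log2 fold change of -0.87 (edgeR adjusted p = 0.0494) and the first one not called had -0.84 (edgeR adjusted p = 0.0501).

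**Figure D1:**
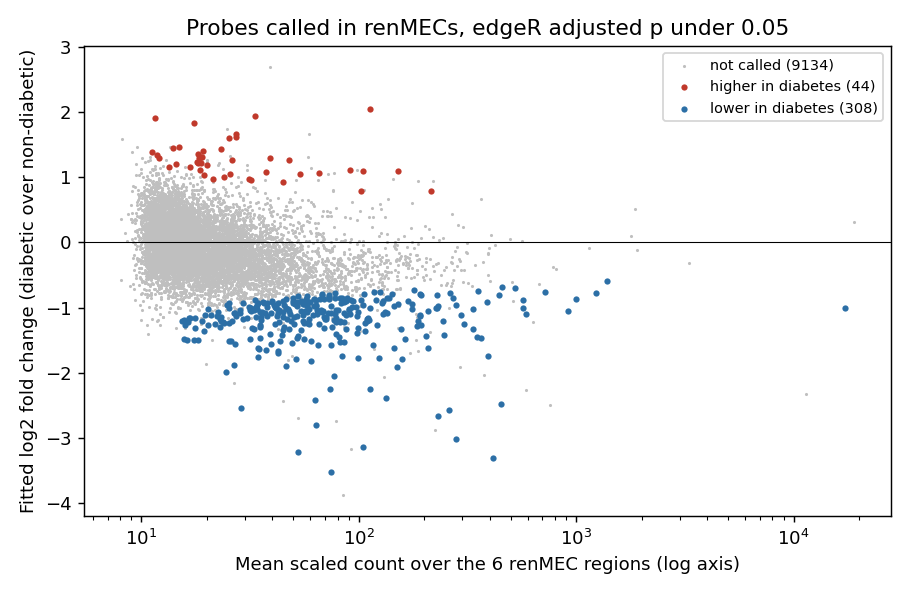
Fitted log2 fold change (diabetic over non-diabetic) of each of the 9486 tested probes against its mean scaled count over the 6 renMEC regions, on a log axis. Red points are the 44 probes called higher, blue points the 308 called lower and grey points the probes not called. The blue points reach to the most abundant probes, while the red points end at a mean of 215.

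The direction of the difference changed with the abundance of the probe. Probes were grouped by their mean scaled count over all 6 regions, and the difference was taken between the condition means of log2(scaled count + 1). The median difference was 0.18 for the 9147 probes with a mean of 3 to 10, 0.02 for the 9005 probes of 10 to 30, -0.37 for the 1667 probes of 30 to 100, -0.45 for the 295 probes of 100 to 300 and -0.66 for the 58 probes of 300 and over. The other 13 probes of 1 to 3 and the 1 probe under 1 were left out of the classes. The counts of sparse probes were thus on average slightly higher in diabetes and those of abundant ones lower. Negative control probes could not be told from the others, because no probe ID is paired with a gene. How much of the sparse counts is background was therefore not tested. The pseudocount of 1 understates the differences of the sparsest class.

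The share of probes below 0 was 34.3% in the class of 3 to 10, 48.6% in that of 10 to 30, 81.6% in that of 30 to 100, 87.5% in that of 100 to 300 and 87.9% in that of 300 and over. Past 2-fold, 332 probes of the sparsest class were higher and 84 lower. In the class of 300 and over 0 were higher and 16 lower. Over all 20186 probes the median difference was 0.05, with 457 probes more than 2-fold higher and 388 more than 2-fold lower. The classes of 3 to 10 and of 10 to 30 held 45.3% and 44.6% of the probes. This median therefore mainly reflects those classes, and its level depends on the scaling.

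The class medians moved together under another scaling. With total counts they were 0.36, 0.23, -0.16, -0.23 and -0.44 from the sparsest to the most abundant class, and with TMM, another scaling offered by edgeR, the class of 10 to 30 was at -0.02. The sign of that class depended on the scaling. The distance between the ends did not rest on it, being -0.84 in the scaled counts and -0.80 with total counts. With counts drawn at random from every region down to the total of the shallowest (thinning) it was -0.92. The class limits were then applied to the thinned counts, so those classes hold other probes.

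**Figure D2:**
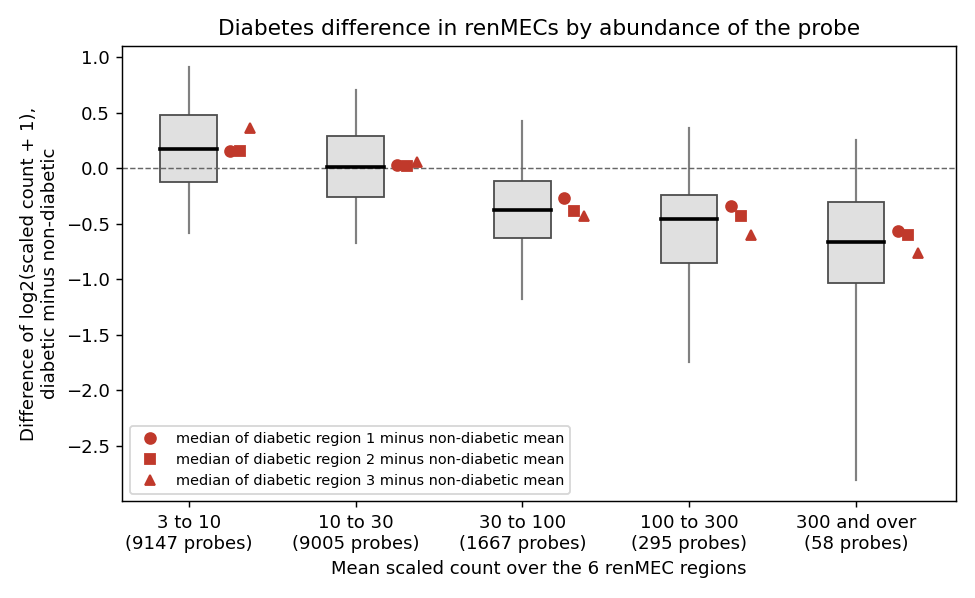
Difference of log2(scaled count + 1), diabetic minus non-diabetic, for probes grouped by mean scaled count over the 6 renMEC regions. Boxes span the quartiles with the median as a line, grey lines reach the 5th and 95th percentiles, and red symbols give the median of each diabetic region minus the mean of the non-diabetic regions. The medians run from 0.18 in the sparsest class to -0.66 in the most abundant one, and the 3 diabetic regions lie on the same side of 0 in every class. At 10 to 30 this does not separate the conditions. The medians of non-diabetic regions 1 and 3 minus the diabetic mean, not drawn, are also above 0 there, at 0.02 and 0.03.

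Each diabetic region showed this order by itself. Against the mean of the non-diabetic regions, the median of the class of 300 and over was -0.56, -0.60 and -0.77 in diabetic regions 1, 2 and 3. In the class of 3 to 10 it was 0.16, 0.16 and 0.37. The conditions overlapped in that sparsest class. Against the mean of all 6 regions its median was 0.067 in non-diabetic region 3, beside 0.070 and 0.061 in diabetic regions 1 and 2. Set against the mean of all 6 regions, the median of the most abundant class minus that of the sparsest was -0.24, -0.30 and -0.70 in the diabetic regions, against 0.43, 0.35 and 0.36 in the non-diabetic regions. In this distance between the classes the 2 conditions did not overlap. The exact two-sided permutation test gave p = 0.1, which is the smallest value that 3 against 3 regions allow.

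Calls became more frequent with abundance, and almost all of the added calls were lower. In the class of 10 to 30, 46 of 7369 tested probes were called lower (0.624%) and 29 higher. In that of 30 to 100, 179 of 1667 were lower (10.7%) and 10 higher, and in that of 100 to 300, 61 of 295 were lower (20.7%) and 5 higher. Of the 58 probes of 300 and over, 22 were lower (37.9%) and 0 higher. No call fell in the class of 3 to 10, where only 97 of 9147 probes passed the filter on low counts.

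The precision of a fold change also improved with abundance. The median SE of the log2 fold change was 0.31 at 10 to 30, 0.25 at 30 to 100, 0.22 at 100 to 300 and 0.19 at 300 and over. Correspondingly, the smallest log2 change that was called, in either direction, was 0.93, 0.77, 0.73 and 0.59 in these classes. The median SD between regions of a condition fell likewise along the classes, being 0.489 at 3 to 10 and 0.233 at 300 and over, on the scale of log2(scaled count + 1). A larger share of calls among abundant probes thus went with a larger median difference and with a smaller error, and how much each contributed was not tested.

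The same order appeared in probes whose regions separated completely. Among the 11025 probes with a mean scaled count of at least 10, all 3 diabetic regions were below all 3 non-diabetic regions for 1470 probes (13.3%) and above them for 747 (6.78%). Here too the scaling set the balance, since with total counts 730 probes were below and 1776 above. By class, the share of probes with all diabetic regions lower was 2.03% at 3 to 10, 7.40% at 10 to 30, 36.7% at 30 to 100, 52.5% at 100 to 300 and 63.8% at 300 and over. The share with all diabetic regions higher was 9.52%, 7.70%, 2.70%, 2.37% and 3.45% in the same classes.

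The second question was how far single regions bore out the difference. Over the 11025 probes with a mean of at least 10, a diabetic and a non-diabetic region differed by more than 2-fold at 8.25% to 18.2% of the probes, with a median of 14.2% over 9 pairs. Between diabetic regions it was 8.62%, 14.7% and 15.0%, and between non-diabetic regions 2.51%, 6.90% and 10.98%. Over all these probes, then, the values of the diabetic pairs lay within the range of the pairs between conditions. The lowest value, 2.51%, was that of non-diabetic regions 1 and 3, the deepest pair, and the highest, 18.2%, was that of diabetic region 2 and non-diabetic region 2, the shallowest pair. The median of the pairs between conditions exceeded that of the pairs within by 4.36 percentage points, and by 6.69 after such thinning. The limit of 10 was then taken on the thinned counts, so the 2 values cover different probes and do not isolate depth.

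Rank correlations were taken over the same probes, and by them the diabetic pairs reached below the range of the pairs between conditions. Spearman's rho between a diabetic and a non-diabetic region was 0.56 to 0.72. It was 0.53 to 0.64 between diabetic regions and 0.72 to 0.86 between non-diabetic regions. Diabetic regions 1, 2 and 3 had a mean rho of 0.60, 0.54 and 0.59 with the other diabetic regions, against 0.68, 0.59 and 0.65 with the non-diabetic regions. These correlations are across probes, which are not independent replicates, and they share the libraries and their depths.

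The picture was different for abundant probes. In the class of 300 and over, 29.3% to 39.7% of probes were over 2-fold apart between a diabetic and a non-diabetic region, and 1.72% to 27.6% between regions of the same condition. This was the only class in which the ranges did not overlap. At 100 to 300 they were 17.97% to 27.1% and 1.69% to 19.7%, at 30 to 100 they were 11.9% to 21.4% and 1.92% to 13.0%, and at 3 to 10 they were 9.30% to 27.0% and 8.51% to 26.3%. The highest value within a condition in the most abundant class, 27.6%, was between diabetic regions.

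**Figure D3:**
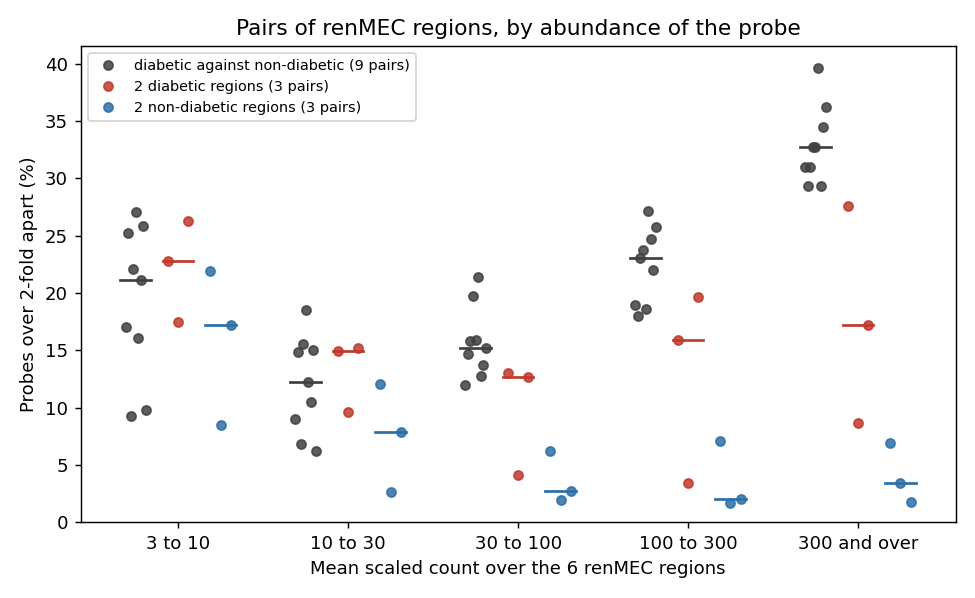
Percent of probes over 2-fold apart in each pair of renMEC regions, by mean scaled count. Grey points are the 9 pairs of a diabetic and a non-diabetic region, red points the 3 diabetic pairs and blue points the 3 non-diabetic pairs, with the median as a line. In the class of 300 and over the grey points start at 29.3% and the highest red point is at 27.6%, while at 3 to 10 the ranges overlap.

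Each region was then set against calls made without it. A held-out region was on the called side when it lay beyond the midpoint of the means of the retained regions, toward its own condition. Among probes called lower, 135 of 159 held for diabetic region 1, 235 of 343 for diabetic region 2 and 163 of 201 for diabetic region 3. For non-diabetic regions 1, 2 and 3 the counts were 230 of 266, 236 of 271 and 75 of 78. Most lower calls therefore lay on the called side in the region left out, least often in diabetic region 2. Abundant probes were mostly lower in diabetes whether called or not. By condition means over every region, 81.6% of all probes of 30 to 100 were lower. At 100 to 300 it was 87.5%, and at 300 and over 87.9%. Whether lower calls held more often than uncalled probes of like abundance was not tested.

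Higher calls were fewer. They held at 10 of 19 for diabetic region 1, 29 of 68 for diabetic region 2 and 15 of 38 for diabetic region 3, against 29 of 36, 29 of 35 and 7 of 7 for the non-diabetic regions. Among higher calls the median log2 difference of left-out diabetic regions 1, 2 and 3 from the non-diabetic mean was 0.61, 0.38 and 0.61, while that of the diabetic regions retained each time was 1.35, 1.25 and 1.26. Among lower calls the left-out diabetic regions were at -1.11, -0.91 and -1.0, and the retained ones at -1.31, -1.14 and -1.29. Over both directions the share on the called side was 64.2% to 96.5%, while among all tested probes 49.1% to 61.1% lay on the side of their fitted difference. The lowest pooled share, 64.2%, was again that of diabetic region 2. Lower calls make up most of the pooled shares. The share among all tested probes is not matched to the lower calls in direction or abundance. For left-out diabetic regions 1, 2 and 3 the share among all tested probes was 49.1%, 51.2% and 51.6%. Higher calls alone, at 10 of 19, 29 of 68 and 15 of 38, were above it in region 1 and below it in regions 2 and 3.

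The third question was how strongly a few probes dominated the counts. Diabetic regions were less concentrated than non-diabetic ones over the 10, 50, 100, 500 and 1000 most abundant probes. The 100 most abundant probes of a region took 19.99%, 19.3% and 18.7% of its counts in the diabetic regions (19.3% ± 0.632, SD, n = 3), against 24.96%, 23.7% and 27.0% in the non-diabetic regions (25.2% ± 1.64, SD, n = 3). For the 10 most abundant the share was 12.4% ± 0.493 in diabetic against 15.8% ± 1.65 in non-diabetic regions, and for the 1000 most abundant 36.4% ± 1.55 against 45.6% ± 1.42. In each of these the conditions did not overlap. After such thinning the difference at 100 probes was -5.92 percentage points, against -5.90 without thinning.

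The share of counts in the most abundant probes of a region does not depend on the scaling between regions. The shares of the abundance classes can, because the class limits are set on scaled counts. The smallest p of an exact two-sided permutation test with these regions is 0.1, and it was reached at each of these depths of the ranking and for the 5 abundance classes (adjusted p = 0.11 over 11 tests). This test could therefore not place any of them under 0.05. The single most abundant probe of a region took 4.68%, 5.33% and 6.06% in the diabetic regions, against 5.06%, 3.98% and 6.01% in the non-diabetic regions, which overlapped (exact two-sided permutation test, p = 0.6).

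The counts of the diabetic regions were spread over more probes. It took 2459, 2638 and 3118 probes to reach 50% of the counts in the diabetic regions, against 1404, 1588 and 1297 in the non-diabetic regions. By class, probes with a mean of 300 and over held 16.5% ± 0.539 of the counts in diabetic, against 22.1% ± 1.62 in non-diabetic regions. Those of 3 to 10 held 19.4% ± 1.61 and 14.3% ± 0.712, and those of 10 to 30 held 36.4% ± 0.302 and 31.4% ± 1.18 (SD, n = 3 each). In the class of 10 to 30 the difference of 4.99 percentage points was 2.06 without non-diabetic region 3, the deepest, and -0.34 after thinning. In the class of 3 to 10 the difference of 5.08 points was 9.06 after thinning. The class limits were applied anew to the thinned counts, so the thinned classes hold other probes. The direction at 10 to 30 was thus not stable to where the class limits fell. The classes of 30 to 100 and of 100 to 300 were lower in diabetic regions, at 17.9% ± 0.812 against 20.1% ± 0.417, and at 9.79% ± 0.639 against 12.1% ± 0.178.

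**Figure D4:**
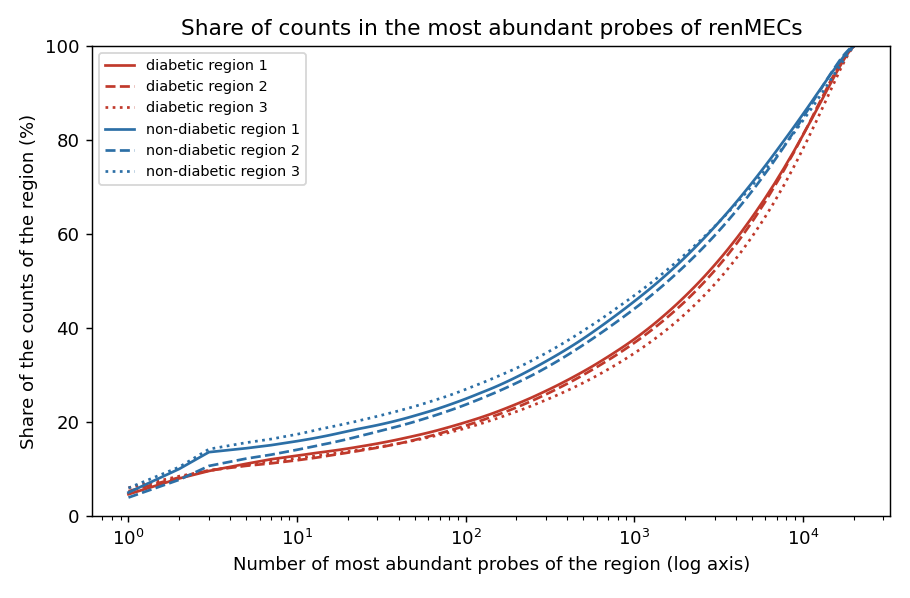
Cumulative share of the counts of each renMEC region held by its most abundant probes, with the number of probes on a log axis. Red lines are the diabetic and blue lines the non-diabetic regions. Between 3 and 10000 probes the blue lines run above the red ones, and at 100 probes the red lines are at 18.7% to 19.99% and the blue lines at 23.7% to 27.0%.

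Individual probes at the top of the ranking differed in direction. The most abundant probe of renMECs by mean share took 4.68%, 5.33% and 6.06% of the counts in the diabetic regions, against 3.57%, 3.77% and 3.81% in the non-diabetic regions. It was higher in all 3 diabetic regions but not called, with a log2 fold change of 0.31 ± 0.14 (SE, edgeR adjusted p = 0.276). The third probe took 1.58%, 0.102% and 1.18% in the diabetic regions, against 5.01%, 2.94% and 4.45% in the non-diabetic regions. Its log2 fold change was -2.33 ± 1.08 (SE), and with a 48.9-fold range over the 6 regions it was not called (edgeR adjusted p = 0.41). The 0.102% of diabetic region 2 at this probe was the widest departure of a single region among the 5 most abundant probes.

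Other top probes varied more between regions of a condition than between conditions. The fourth probe took 0.213%, 1.504% and 0.570% in the diabetic regions, against 0.484%, 1.13% and 0.830% in the non-diabetic regions. For the fifth the shares were 0.956%, 0.223% and 0.225% in the diabetic regions, against 0.311%, 0.433% and 0.556% in the non-diabetic regions. Diabetic region 2 stood highest at the fourth probe and diabetic region 1 at the fifth. At the probe ranked 20 the highest region exceeded the lowest by 124-fold.

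Counted over the ranking, calls were mostly lower. Of the 10 most abundant probes 3 were called lower and 0 higher, of the 50 most abundant 21 and 0, of the 100 most abundant 34 and 1, and of the 1000 most abundant 195 and 9. Among all tested probes 3.71% were called in either direction, and among the 1000 most abundant 20.4%. The median log2 fold change of the 100 most abundant probes was -0.60, with 85 below 0. That of the 1000 most abundant was -0.46, with 854 below 0.

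The 4 probes given by ID were the 2 most abundant lower and the 2 most abundant higher calls among probes whose conditions did not overlap. RTS0067474, which ranked 2 by mean share, had 12012, 6367 and 8217 counts in the diabetic regions, against 28766, 10491 and 87228 in the non-diabetic regions. As scaled counts these were 13291, 11272 and 9698 in the diabetic regions, against 23148, 16884 and 29136 in the non-diabetic regions. Every diabetic region was below every non-diabetic one. The fold change was -1.01 ± 0.17 (log2, SE, edgeR adjusted p = 0.0012), and the probe stayed called when any single region was left out. It took on average 2.92% of the counts in diabetic, against 5.02% in non-diabetic regions.

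RTS0080788, ranked 8, had scaled counts of 1319, 968 and 1026 in the diabetic regions, against 1600, 1720 and 1656 in the non-diabetic regions. The non-diabetic regions were close together and the diabetic ones all lower, with a log2 fold change of -0.59 ± 0.17 (SE, edgeR adjusted p = 0.0485). This call was at the edge of the threshold and was lost when any of the 6 regions was left out, with log2 fold changes of -0.73 to -0.50 then. With total counts the change was -0.37 and was not called.

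RTS0077009, ranked 99, had scaled counts of 251, 312 and 255 in the diabetic regions, against 165, 164 and 143 in the non-diabetic regions. All diabetic regions were higher, by 0.79 ± 0.20 on the log2 scale (SE, edgeR adjusted p = 0.0189). The call was lost without diabetic region 1 (0.85) or 2 (0.69) and without non-diabetic region 1 (0.83), 2 (0.83) or 3 (0.73).

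RTS0066298, ranked 172, had scaled counts of 276, 163 and 178 in the diabetic regions, against 93.3, 98.2 and 96.9 in the non-diabetic regions. Diabetic region 1 was the highest, and the non-diabetic regions differed little. The log2 fold change was 1.10 ± 0.22 (SE, edgeR adjusted p = 0.00358), and the call was lost without diabetic region 1 (0.83) or without non-diabetic region 3 (1.11).

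**Figure D5:**
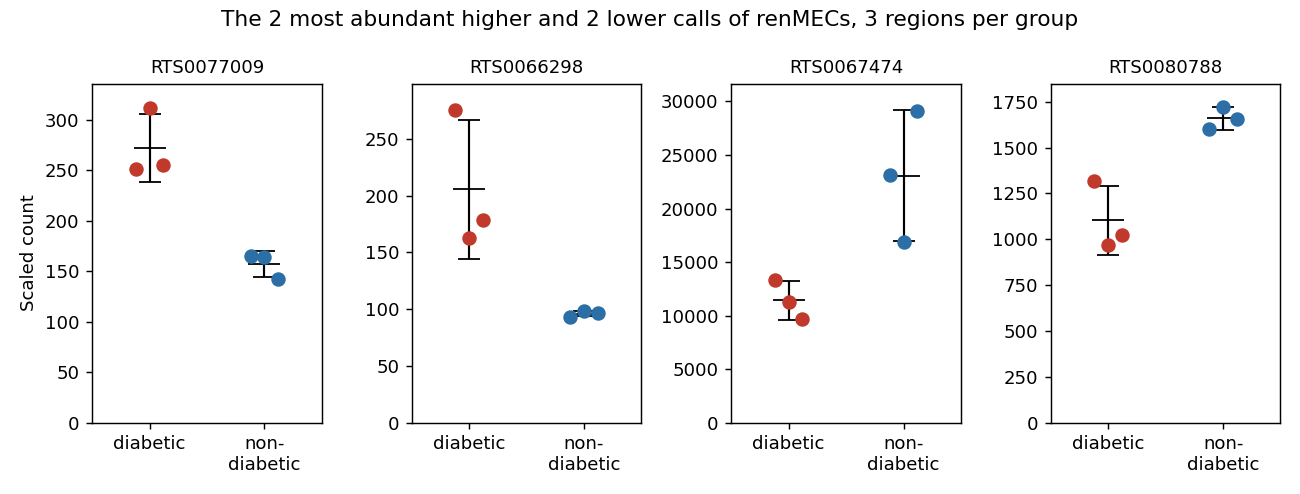
Scaled counts of RTS0077009, RTS0066298, RTS0067474 and RTS0080788 in the 3 diabetic (red, left) and 3 non-diabetic (blue, right) renMEC regions, with mean and SD. Axes start at 0 and differ between probes. The red and blue points of each probe do not overlap.

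Lastly, the renMEC difference was set beside those of the other cell types of plate 2. Regions of different organs may come from the same mouse, so the tests between cell types take no account of the animal. In 1 model of 18 regions, the diabetes effect of renMECs was more negative than that of carMECs for 21 of 11319 probes (0.186%) and more positive for 1 (0.00883%). Unadjusted, 370 and 583 probes passed 0.05. With TMM the adjusted counts were 93 and 0, and with total counts 20 and 4, so their size depended on the scaling. Against neuronal cells it was more negative for 18 probes (0.159%) and more positive for 5 (0.0442%), and unadjusted for 477 and 526. With TMM these were 47 and 5, and with total counts 16 and 40, so that the balance turned.

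Single regions also moved these counts. Against carMECs, the 21 became 32 when diabetic renMEC region 2 was left out and 12 when non-diabetic renMEC region 3 was. They became 10, 13 and 13 without diabetic carMEC regions 1, 2 and 3, and 12 without region 1 of the non-diabetic carMECs. Against neuronal cells, the 18 became 28 without diabetic renMEC region 2, and 11 without either non-diabetic renMEC region 3 or diabetic neuronal region 1. The 5 more positive probes became 16 and 11 without diabetic renMEC regions 2 and 3, and 10 without region 1 of the non-diabetic renMECs, region 1 of the non-diabetic neuronal cells or region 3 of the diabetic neuronal cells. They became 3 without non-diabetic neuronal region 2.

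The probes called in renMECs could be followed in the other cell types only in part. Of the 308 lower probes, 140 were tested in carMECs, where 5 were called lower and 0 higher, against 0.585% lower and 0.339% higher among all 3247 probes tested there. Their median log2 fold change in carMECs was -0.26, and that of all tested probes was -0.11. In neuronal cells 124 were tested, of which 5 were called lower and 0 higher, against 1.09% and 0.145% of 4135, and their median was -0.02, as against -0.01. Of the 44 higher probes, 13 were tested in carMECs and 10 in neuronal cells, and 1 was called higher in each. Their median log2 fold change was 0.23 in carMECs, with 11 above 0 and 2 below. In neuronal cells it was 0.43, with 8 above 0 and 2 below. All tested probes had medians of -0.11 in carMECs and -0.01 in neuronal cells. Total counts there were 115269 to 153319 in diabetic against 211272 to 521366 in non-diabetic carMEC regions, and 78053 to 168298 in diabetic against 244551 to 788146 in non-diabetic neuronal regions, so fewer probes passed the filter, and depth and condition cannot be told apart in these cell types.

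Among the 4 named probes, RTS0066298 was also called higher in diabetic carMECs, at 1.13 ± 0.21 on the log2 scale (SE, edgeR adjusted p = 3.4e-05). Its counts, scaled within carMECs, were 292, 334 and 374 in the diabetic carMEC regions, against 153, 178 and 127 in the non-diabetic ones. RTS0077009 was called higher in diabetic neuronal cells, at 0.83 ± 0.21 (SE, edgeR adjusted p = 0.0148). RTS0067474 was not called in either, at -0.41 ± 0.17 in carMECs and -0.01 ± 0.25 in neuronal cells. None of the 4 differed between renMECs and another cell type after adjustment in edgeR's interaction test, the lowest adjusted p being 0.0677 for RTS0067474 against neuronal cells.

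The share of the most abundant probes ran otherwise in the other cell types. In carMECs the top 100 took 17.8% ± 1.56 of the counts of diabetic regions, against 16.4% ± 1.89 in non-diabetic ones, which overlapped. In neuronal cells the share was 25.9% ± 0.853 in diabetic against 20.9% ± 1.37 in non-diabetic regions (SD, n = 3 each). These did not overlap and ran the other way from renMECs. The difference between cell types in these shares was not tested.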

How the data were processed

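The authors deposited counts per probe for each region, 1 per unique molecular identifier, from sections hybridised with GeoMx Mouse Whole Transcriptome Atlas probes. The version recorded with the deposited counts is that of GeoMx NGS Pipeline 2.3.4. The deposited counts are not scaled, and probe exclusion and 75th percentile scaling had not been applied. An unlisted probe was taken as 0.

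Tests used edgeR 4.0.16 in R 4.3.3 (robust quasi-likelihood fit, factors from the 75th percentile of every region, filterByExpr with a minimum of 10 counts) on the 6 renMEC regions, and on 18 regions for interactions. Exact permutation tests used SciPy 1.17.1. The fits were tested on simulated data. Named probes are the 2 higher and 2 lower called probes with the highest mean scaled count whose conditions did not overlap. Alternatives were TMM, DESeq2 1.42.0, total counts, other filters, pseudocounts, thinning, a replicate block, the methods' test (Student's t-test) and leaving out each region. Diabetic carMEC regions 2 and 3 carry a heart label that does not mention MECs. They were kept as carMECs, since the series has no other kind of heart region. The regions compared and the lists were chosen with earlier results of these data known.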

Additional observations from a re-analysis of the deposited data

Results flagged for a closer look

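A test of the difference between cell types singled out probes whose diabetes effect in renMECs was not that of another cell type. Against carMECs the effect was more negative for 21 probes and more positive for 1 probe. Against neuronal cells it was more negative for 18 probes and more positive for 5 probes (edgeR interaction contrast, adjusted p under 0.05, 11319 probes tested).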

How the results depend on the processing

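Calls of lower and higher probes in renMECs numbered 141 and 110 with total counts, and 498 and 75 with a replicate block. Higher calls numbered 28 with at least 10 counts in every region, 17 after thinning, 71 in the model of 18 regions and 13 with DESeq2's test. Leaving out 1 region gave 78 to 343 lower and 7 to 68 higher calls. The methods' test was Student's t-test on the scaled counts of 20185 probes, with no filter on low counts. At its own threshold, an unadjusted p under 0.05 and a fold change over 1.5, it gave 774 lower and 606 higher. That threshold is unlike the adjusted one of the edgeR calls. After Benjamini-Hochberg adjustment the t-test gave 0 and 0. Same-numbered regions of the conditions correlated in their deviations at 0.14, 0.0997 and 0.04, and differently numbered ones at -0.11 to -0.01. Each was highest with its own number but not all were above 0.1, and the numbers were not taken as pairs. That limit does not settle whether the regions were paired.

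The 2 alternatives chosen after seeing the data gave 321 and 44 calls with an interpolated 75th percentile, and 196 and 49 with total counts without the 100 most abundant probes. The distance between abundance classes was -0.50 between the extremes of 10 equal classes. The excess of probes over 2-fold apart between conditions was 11.6 percentage points at a mean of at least 30, against 4.36 at 10. Separate probes, lower and higher, numbered 730 and 1776 with total counts, 908 and 123 after thinning, and 804 and 54 at a mean of at least 30. The share of the top probe, 0.338 percentage points higher in diabetic regions, ranged from -0.178 to 0.834 when 1 region was left out, and was -0.0145 without diabetic region 3 and -0.178 without non-diabetic region 2. The difference in the share of the class of 10 to 30 was -0.34 percentage points after thinning, against 4.99. Class limits and the minimum mean were taken on the thinned counts, so the values after thinning cover other probes.

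Against carMECs, more negative and more positive probes numbered 93 and 0 with TMM, 20 and 4 with total counts and 6 and 0 in a model of all 24 regions, and 10 to 32 and 0 to 9 when 1 region was left out. Against neuronal cells they numbered 47 and 5, 16 and 40, and 5 and 3 under the same settings, and 11 to 28 and 3 to 16 when 1 region was left out. Causes were not tested. Shallow regions limit the probes under 10 scaled counts, of which 97 were tested.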
